A study of Pan troglodytes and Macaca mulatta with 12 samples.

Results

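A set of 53 gene identifiers for cell cycle and DNA replication genes was followed in lymphoblastoid cell lines, that is, B cells made to grow without end in culture. The set was drawn up as MCM helicase and other replication genes, cyclins, cyclin-dependent kinases and their inhibitors, mitotic kinases and kinetochore genes, and it was chosen by function, not by level. Of the 53 identifiers, 50 were found among the 16903 gene identifiers of the files, and all 50 passed the filter on low counts that left 9440 genes for testing. The other 3 had no listed exon and have no value here. The lines came from 6 chimpanzees (Pan troglodytes, 3 of them female) and 6 rhesus macaques (2 of them female, the rest male), with 1 RNA sequencing library per animal and no treatment named in the labels. All cells were grown in RPMI-1640 with fetal bovine serum and split every few days.

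No gene names stand beside the identifiers in the files, and 0 of the identifiers matched the gene name tables at hand. A role is therefore not given to any single gene below. Genes are called by chromosome and by the span of their counted exons in the coordinates of the files, for which no source used here names a genome build, and identifiers are printed for 2 genes in each direction. For the same reason the label of the set, and the B cell origin of the lines, could not be checked against markers.

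As background, a dividing cell copies its DNA once per cycle. Replication origins are licensed when the MCM helicase is loaded on them, and cyclins bound to cyclin-dependent kinases then fire the origins and later drive mitosis. Inhibitors of these kinases hold the cycle back. Mitotic kinases, the spindle checkpoint and the kinetochore, which ties chromosomes to the spindle, see to the even division of the copies. Genes of S phase and of mitosis are transcribed mostly in cells that are cycling, so their level in bulk RNA follows the share of such cells as well as the RNA of each cell. In bulk libraries, fewer cells of a phase and less RNA per cell cannot be told apart.

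Library totals ran from 1434241 to 4751954 counts in chimpanzee and from 1801830 to 4600137 in rhesus macaque. The 50 genes together took between 0.831% and 1.25% of a chimpanzee library and between 0.714% and 1.20% of a rhesus macaque library. The lowest of these shares belonged to rhesus macaque replicate 1 and the highest to chimpanzee replicate 6, and the ranges of the species overlapped. Levels are given as CPM, counts scaled to a common library size, and differences as log2 values of chimpanzee minus rhesus macaque. A gene was called where the edgeR quasi-likelihood test gave a Benjamini-Hochberg adjusted p under 0.05 over all 9440 genes. Exons of the 50 genes overlapped no exon of another gene in the files.

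Per length of counted exon, the 50 genes covered a wide range of levels. The chromosome 20 gene from 5047415 to 5048560 stood highest, at 674 RPKM (CPM per kilobase) in chimpanzee and 934 RPKM in rhesus macaque. Next in chimpanzee came a gene on chromosome 6 from 36754465 to 36763086, at 497 RPKM in chimpanzee and 350 RPKM in rhesus macaque. A gene on chromosome 18 from 649641 to 661451 followed, at 330 RPKM in chimpanzee and 483 RPKM in rhesus macaque. The order of the last pair was thus the other way round in rhesus macaque. In all, 12 genes were above 100 RPKM in both species and 4 were under 20 RPKM in both. The lowest was ENSG00000175305 on chromosome 8, at 7.06 RPKM in chimpanzee and 2.45 RPKM in rhesus macaque. Each of the 50 genes had between 414 and 57807 counts over the 12 libraries.

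Most of the set did not pass the test between the species. Of the 50 genes, 7 were higher and 5 were lower in chimpanzee, together 24% of the set. Over all 9440 genes tested, 48.3% were called, 24.7% higher and 23.6% lower. The median log2 difference of the set was 0.07, against 0.04 over all genes tested, and the median size of the difference was 0.39 on the log2 scale, against 0.71 over all genes. In 6 of the 50 genes the 6 lines of one species were all above the 6 lines of the other, where all genes tested gave 27.1%. Chimpanzee lines were the upper ones in 3 of the 50, against 13.3% of all genes, and rhesus macaque lines in 3 of the 50, against 13.8%. A difference beyond 2-fold passed its own test (edgeR glmTreat) for 2 genes of the set, both lower in chimpanzee, where all genes gave 17.3%. The share called in the set was below that of all genes although its genes were more abundant, with a median level of 124.5 CPM against 50.8 CPM.

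**Figure D1:**
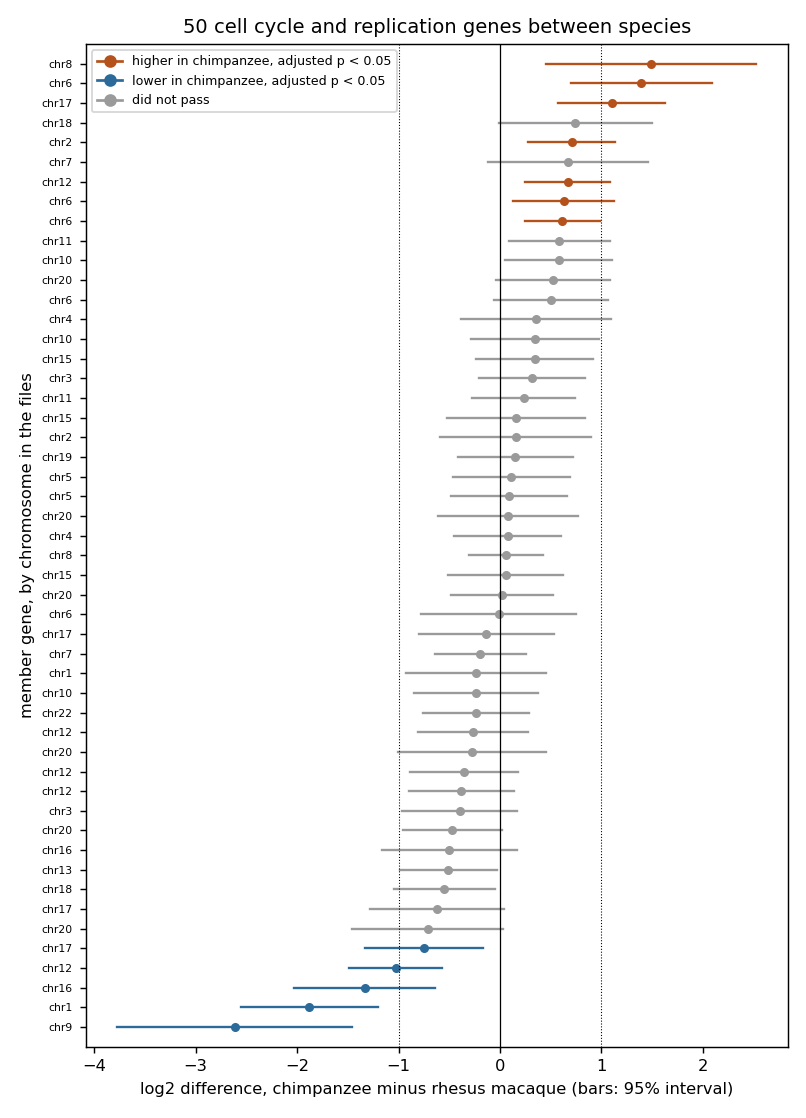
Log2 difference between chimpanzee and rhesus macaque (x axis) for each of the 50 genes, ordered from highest to lowest and marked by chromosome (y axis), with 95% intervals. The 7 genes that were higher and the 5 that were lower in chimpanzee are coloured, the dotted lines mark 2-fold, and most intervals cross 0.

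The largest differences pointed downward in chimpanzee. ENSG00000147889, on chromosome 9 from 21960901 to 21984490, ran from 6.38 to 14.1 CPM in chimpanzee lines, with a median of 8.77 CPM, and from 10.3 to 160.0 CPM in rhesus macaque lines, with a median of 44.7 CPM. Every chimpanzee line was low, while the rhesus macaque lines were spread widely, and only the lowest of them, replicate 5, reached into the chimpanzee range. The means were 9.78 ± 3.14 CPM in chimpanzee and 60.9 ± 54.6 CPM over the rhesus macaque lines (SD, n = 6 each), a log2 difference of -2.62 (standard error 0.54, edgeR adjusted p = 0.00119). Both of its counted exons were lower, with 105 and 68 counts in chimpanzee against 683 and 240 in rhesus macaque. In a fit that left out the exon with most counts of every gene, the log2 difference of this gene was -1.996 (standard error 0.54, edgeR adjusted p = 0.00761).

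ENSG00000123080, on chromosome 1 from 51206196 to 51212893, had between 59.3 and 199 CPM in chimpanzee lines, with a median of 111.8 CPM, and between 328.8 and 732 CPM in rhesus macaque lines, with a median of 414 CPM. The species did not overlap. The mean was 122 ± 57.0 CPM in chimpanzee and 449 ± 149 CPM over the rhesus macaque lines (SD, n = 6 each), a log2 difference of -1.88 (standard error 0.32, edgeR adjusted p = 0.000246). These were the 2 genes that passed the test beyond 2-fold (edgeR glmTreat adjusted p = 0.00962 and 0.0105). All 3 counted exons of the chromosome 1 gene were lower in chimpanzee.

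A further 3 genes fell in chimpanzee by smaller amounts. The chromosome 16 gene from 87399349 to 87401391 had 24.4 to 134 CPM in chimpanzee lines, with a median of 82.5 CPM, and 145 to 306 CPM in rhesus macaque lines, with a median of 190.0 CPM. No chimpanzee line reached a rhesus macaque line, and the log2 difference was -1.33 (standard error 0.33, edgeR adjusted p = 0.00380). The chromosome 12 gene from 56428272 to 56432431 had 132 to 234 CPM in chimpanzee lines, with a median of 161 CPM, and 269 to 528 CPM in rhesus macaque lines, with a median of 334 CPM. Here too the species were fully apart, with a log2 difference of -1.03 (standard error 0.22, edgeR adjusted p = 0.00132), and all 8 counted exons were lower in chimpanzee. On chromosome 17, the gene from 8049259 to 8051883 had 34.2 to 122 CPM in chimpanzee lines, with a median of 58.8 CPM, and 84.8 to 130 CPM in rhesus macaque lines, with a median of 117 CPM. Its species overlapped, since chimpanzee replicate 6 lay at 122 CPM, and its log2 difference was -0.75 (standard error 0.27, edgeR adjusted p = 0.0354). That call was lost on leaving out chimpanzee replicate 1, 3, 4 or 5, and likewise any of rhesus macaque replicates 2, 3 and 4, with an edgeR adjusted p of up to 0.0785.

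In the other direction the largest difference was in ENSG00000175305, on chromosome 8 from 95961631 to 95975523. It had 7.26 to 42.6 CPM in chimpanzee lines, with a median of 13.9 CPM, and 2.44 to 8.72 CPM in rhesus macaque lines, with a median of 7.94 CPM. The lowest chimpanzee lines overlapped the rhesus macaque lines. Chimpanzee replicate 1 was the highest, as it was among chimpanzee lines for 28.5% of all genes tested. Its log2 difference was 1.49 (standard error 0.49, edgeR adjusted p = 0.0202). Without chimpanzee replicate 1 the log2 difference was 1.07 and the gene was not called (edgeR adjusted p = 0.0583).

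ENSG00000112576, on chromosome 6 from 42012275 to 42017530, had 62.2 to 245 CPM in chimpanzee lines, with a median of 123 CPM, and 35.6 to 74.6 CPM in rhesus macaque lines, with a median of 47.3 CPM. A single chimpanzee line, replicate 5, lay within the rhesus macaque range. The mean was 138 ± 70.1 CPM in chimpanzee and 52.8 ± 15.5 CPM over the rhesus macaque lines (SD, n = 6 each), a log2 difference of 1.39 (standard error 0.32, edgeR adjusted p = 0.00282). All 4 counted exons were higher in chimpanzee. With males only, 3 chimpanzee and 4 rhesus macaque libraries, the log2 difference was 0.68 and the gene was not called (edgeR adjusted p = 0.184).

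The gene on chromosome 17 from 35697672 to 35712939 had 67.6 to 132 CPM in chimpanzee lines, with a median of 83.3 CPM, and 22.6 to 60.8 CPM in rhesus macaque lines, with a median of 42.1 CPM. The species did not overlap, the log2 difference was 1.10 (standard error 0.25, edgeR adjusted p = 0.00211), and all 11 counted exons were higher in chimpanzee. On chromosome 12, the gene from 54646826 to 54651298 was also fully apart, with 89.5 to 180.0 CPM in chimpanzee lines and a median of 100.6 CPM, and 59.2 to 76.8 CPM in rhesus macaque lines and a median of 74.3 CPM. Its log2 difference was 0.67 (standard error 0.20, edgeR adjusted p = 0.0122), and the rhesus macaque lines lay close together. The third gene without overlap lies on chromosome 6 from 52238832 to 52257541, with 294.6 to 383 CPM in chimpanzee lines and a median of 309 CPM, and 141 to 253 CPM in rhesus macaque lines and a median of 225 CPM. Its log2 difference was 0.61 (standard error 0.17, edgeR adjusted p = 0.00960), and 15 of its 16 counted exons were higher in chimpanzee.

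The last pair of higher genes overlapped between the species. On chromosome 2, the gene from 136318585 to 136350481 had 165.5 to 309 CPM in chimpanzee lines, with a median of 209 CPM, and 99.5 to 176 CPM in rhesus macaque lines, with a median of 131 CPM. A single chimpanzee line, replicate 5, lay below the highest rhesus macaque lines, and the log2 difference was 0.71 (standard error 0.20, edgeR adjusted p = 0.00963). All 15 of its counted exons were higher in chimpanzee. On chromosome 6, the gene from 80772278 to 80808958 had 42.0 to 64.2 CPM in chimpanzee lines, with a median of 50.3 CPM, and 19.5 to 46.7 CPM in rhesus macaque lines, with a median of 34.3 CPM. Its log2 difference was 0.63 (standard error 0.23, edgeR adjusted p = 0.0385). The call was lost on leaving out chimpanzee replicate 1, 3, 5 or 6, and likewise any of rhesus macaque replicates 1, 2 and 3, with an edgeR adjusted p of up to 0.0901. It was lost as well with sex as a covariate (log2 difference 0.59, edgeR adjusted p = 0.0534) and with no filter on low counts (0.61, edgeR adjusted p = 0.0677).

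With males only, 6 of the 50 genes (12%) were called, in a fit that called 28.8% of all genes. Of the 12 genes called with all libraries, 5 were among them, 4 lower and 1 higher in chimpanzee. The share of calls kept in males was not counted over all genes. Among the 7 lost calls, 5 had log2 differences in males at least as large as with all libraries, with larger standard errors. These were 1.602 for ENSG00000175305, 0.77 on chromosome 2 from 136318585, 0.76 on chromosome 12 from 54646826, 0.69 on chromosome 6 from 80772278 and -0.83 on chromosome 17 from 8049259 (edgeR adjusted p = 0.0983, 0.0987, 0.0987, 0.183 and 0.104). ENSG00000112576 had a smaller difference in males, 0.68. The males-only difference of the remaining gene, on chromosome 6 from 52238832, was not recorded.

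**Figure D2:**
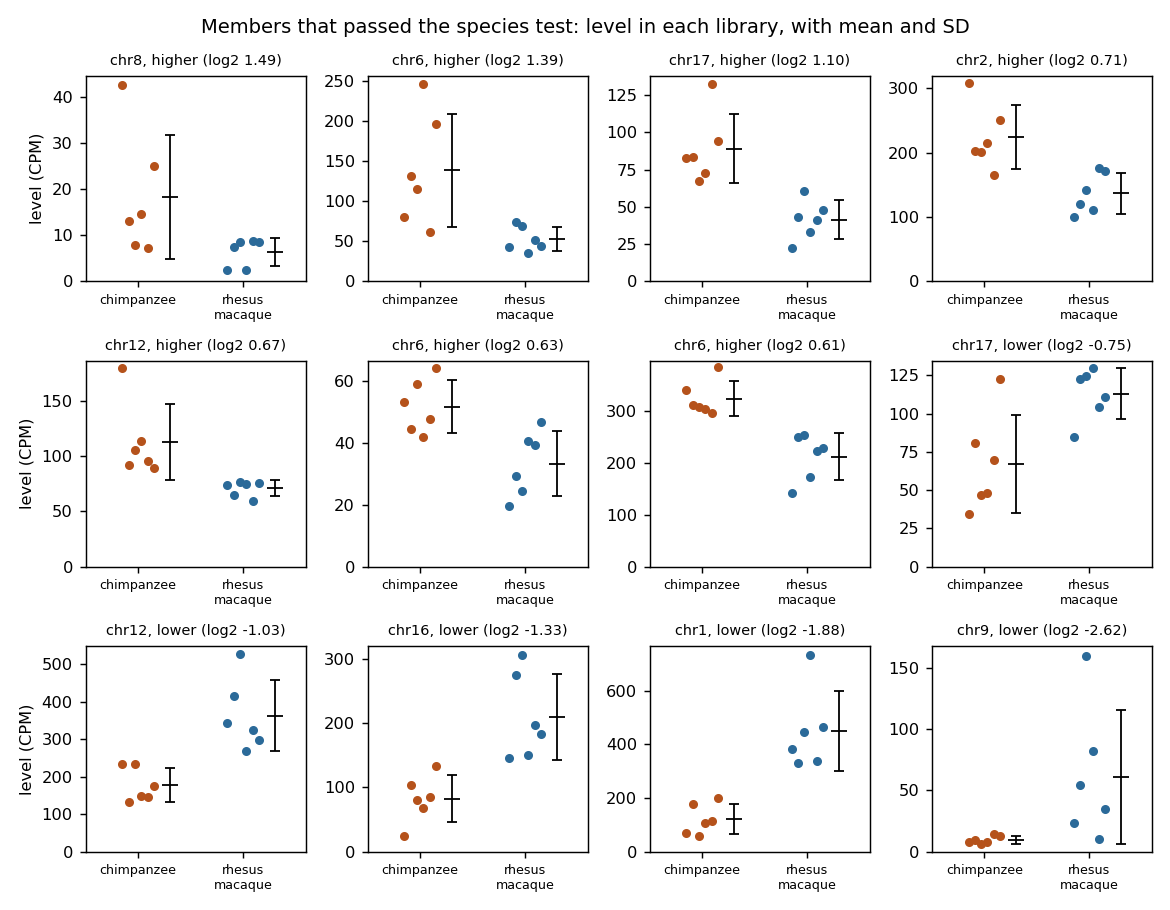
Level in CPM (y axis, from 0) of the 12 called genes in each library, with chimpanzee lines left of rhesus macaque lines, and the mean with SD beside the points (n = 6 each). The panels run from the log2 difference of 1.49 on chromosome 8 to -2.62 on chromosome 9, where the rhesus macaque lines span 10.3 to 160.0 CPM.

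Of the 38 genes that were not called, 4 had an unadjusted p under 0.05. With the called genes that made 16 of the 50, where all genes tested gave 5194 of 9440, 4558 of them called. For 26 of the 38 the 95% interval of the difference lay within 2-fold either way, so that a larger difference was outside the interval. For the other 12 the interval reached beyond 2-fold, so a difference of that size lay inside it. Such intervals were not counted over all genes. The standard error of a log2 difference ran from 0.17 to 0.54 over the 50 genes, with a median of 0.27. The chromosome 8 gene from 49036629 to 49050961 had the narrowest interval, from -0.30 to 0.42 around a log2 difference of 0.06. It stood at 280 to 473 CPM in chimpanzee lines and 289 to 414 CPM in rhesus macaque lines, and the species overlapped over nearly the whole range.

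The exons behind each gene were then looked at, since a gene count adds up its exon counts. Among exons with at least 20 counts, 95 of 100 in the 12 called genes went in the direction of their gene, 72 of 77 in the higher genes and 23 of 23 in the lower genes. In the 38 genes that were not called it was 285 of 429. A gene count is the sum of its exons, so exons tend toward its direction by construction, though single exons need not share it. These counts are a description only.

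In some genes the exons disagreed. The gene on chromosome 12 from 4253199 to 4284777, with the most counts of the set, had 820 to 2305 CPM in chimpanzee lines, with a median of 1452 CPM, and 1490 to 2615 CPM in rhesus macaque lines, with a median of 2005 CPM. It was not called, with a log2 difference of -0.38 (standard error 0.24, edgeR adjusted p = 0.205). Its exon of 5491 bases, from 4279287 to 4284777, had a mean of 1251 ± 478 CPM in chimpanzee and 1200 ± 426 CPM over the rhesus macaque lines (SD, n = 6 each). The other 3 exons, 773 bases in all, had 114 to 417 CPM in chimpanzee lines, with a median of 244 CPM, and 617 to 990 CPM in rhesus macaque lines, with a median of 744 CPM. On these exons every chimpanzee line was below every rhesus macaque line, while on the long exon the species overlapped. In the fit that left out the exon with most counts of every gene, here the long exon, the log2 difference was -1.69 (standard error 0.24, edgeR adjusted p = 6.98e-05).

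The gene on chromosome 7 from 92085322 to 92300940 gave a second case, in the other direction. As a whole it had 17.7 to 86.8 CPM in chimpanzee lines, with a median of 68.0 CPM, and 17.4 to 66.8 CPM in rhesus macaque lines, with a median of 37.0 CPM, and it was not called (log2 difference 0.67, standard error 0.37, edgeR adjusted p = 0.147). Its exon of 600 bases, from 92300341 to 92300940, had 29.2 ± 13.3 CPM in chimpanzee and 29.8 ± 15.4 CPM over the rhesus macaque lines (SD, n = 6 each). The other 5 exons had 5.30 to 46.2 CPM in chimpanzee lines, with a median of 35.2 CPM, and 4.94 to 13.4 CPM in rhesus macaque lines, with a median of 9.78 CPM. On these exons 5 chimpanzee lines were above all rhesus macaque lines, and chimpanzee replicate 6, at 5.30 CPM, was among the lowest rhesus macaque lines. In the same fit, here without the 600-base exon, the log2 difference was 1.73 (standard error 0.42, edgeR adjusted p = 0.00345). That fit tested 48 genes of the set and called 12 of them (25%), where it called 46.5% of all 7540 genes tested. It also brought in the gene on chromosome 18 from 649641 to 661451, with a log2 difference of -0.63 (edgeR adjusted p = 0.0444). It ended the calls of 3 genes, on chromosome 2 from 136318585, on chromosome 6 from 80772278 and on chromosome 17 from 8049259 (edgeR adjusted p = 0.0647, 0.0544 and 0.150). The sources used here do not say how exons were paired across the species, and the part of that step in these differences was not tested.

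**Figure D3:**
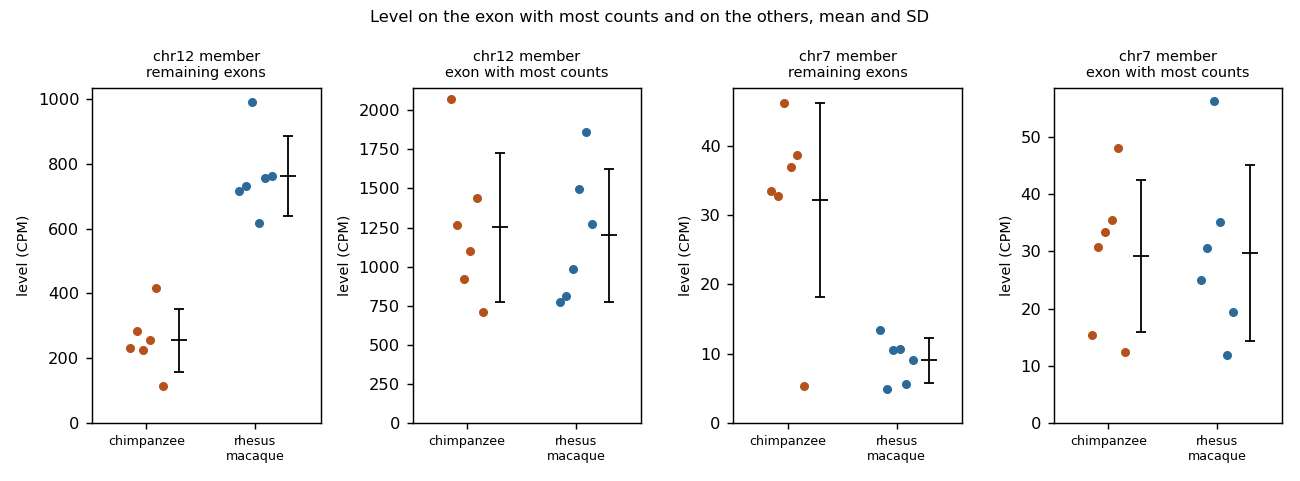
Level in CPM (y axes, from 0) of the chromosome 12 gene from 4253199 (left panels) and of the chromosome 7 gene from 92085322 (right panels), split into the remaining exons and the exon with most counts, in each library with mean and SD (n = 6 each). The remaining exons are lower in every chimpanzee line on chromosome 12 and higher in 5 of 6 on chromosome 7, while the exon with most counts overlaps in both.

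A test of exon usage, in which the level of the gene is taken out, was run over 9970 genes with at least 2 tested exons. Of the 49 genes of the set in that test, 4 were called (edgeR diffSpliceDGE, Simes method, adjusted p under 0.05), 8.16% of them, where all genes gave 4.27%. Exon by exon, 6 of 536 exons were called, 4 higher and 2 lower in chimpanzee, where all exons gave 0.852%. None of the 4 genes was called for its level. In the gene on chromosome 20 from 29790565 to 29853264, the 521-base exon from 29790565 to 29791085 held 3.77% to 8.06% of the counts in chimpanzee lines, with a median of 4.43%, and 0% to 1.45% in rhesus macaque lines, with a median of 0.727%. No line of one species reached the other, over 258 counts in chimpanzee and 35 in rhesus macaque (edgeR gene adjusted p = 0.000437). This gene was called under all 16 alternatives tried for the exon test.

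In the chromosome 12 gene from 4253199, the 160-base exon from 4258187 to 4258346 held 2.94% to 5.52% of counts in chimpanzee lines, with a median of 4.48%, and 8.20% to 15.1% in rhesus macaque lines, with a median of 11.6% (edgeR gene adjusted p = 0.0118). Again the species were apart. In the gene on chromosome 11 from 4072500 to 4116681, the 163-base exon from 4089706 to 4089868 held 3.81% to 9.30% in chimpanzee lines, with a median of 4.90%, and 0.795% to 3.23% in rhesus macaque lines, with a median of 1.74% (edgeR gene adjusted p = 0.0160). The 541-base exon from 99536823 to 99537363 of the gene on chromosome 7 from 99528340 held 1.42% to 4.40% in chimpanzee lines, with a median of 2.55%, and 0.488% to 1.82% in rhesus macaque lines, with a median of 0.809% (edgeR gene adjusted p = 0.0232). In this last gene the lines overlapped. The calls on chromosomes 12, 11 and 7 were kept in 11, 8 and 5 of the 12 fits that left out a library, and without rhesus macaque replicate 2 or 3 only 1 and 2 of the 4 were called.

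Variation from line to line was examined next. The median SD of log2 CPM over the 50 genes was 0.49 in chimpanzee and 0.46 in rhesus macaque (n = 6 lines each), against 0.48 and 0.45 over all genes tested. The set was more abundant, with a median level of 124.5 CPM against 50.8 CPM, and these medians were not matched for level. The SD was larger in chimpanzee for 30 of the 50 genes (60%), and for 56% of all genes. The highest line exceeded the lowest by 1.3-fold to 5.43-fold in chimpanzee, with a median of 2.46-fold, and by 1.29-fold to 14.6-fold in rhesus macaque, with a median of 2.33-fold.

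The most variable gene between chimpanzees was ENSG00000175305, with an SD of log2 CPM of 0.94 in chimpanzee and 0.77 in rhesus macaque. It was followed by the chromosome 7 gene from 92085322, with an SD of 0.84 in chimpanzee and 0.64 in rhesus macaque. Then came the chromosome 16 gene from 87399349, with 0.84 in chimpanzee and 0.44 in rhesus macaque, where chimpanzee replicate 1 was the low line at 24.4 CPM. That library was the lowest chimpanzee line for 31.2% of all genes tested and the highest for 28.5%. Between rhesus macaques ENSG00000147889 varied most, with an SD of 0.43 in chimpanzee and 1.36 in rhesus macaque, from 10.3 CPM in replicate 5 to 160.0 CPM in replicate 3. The chromosome 2 gene from 111111883 to 111152135 had an SD of 0.43 in chimpanzee and 0.92 in rhesus macaque, with 162 to 359 CPM in chimpanzee lines and 58.6 to 368 CPM in rhesus macaque lines. Its lowest rhesus macaque line was replicate 1 and its highest line in both species was replicate 6. The chromosome 4 gene from 104246412 to 104339015 had an SD of 0.58 in chimpanzee and 0.77 in rhesus macaque, with the same lowest and highest rhesus macaque lines. The steadiest gene in chimpanzee was the chromosome 6 gene from 52238832, with an SD of 0.14 in chimpanzee and 0.33 in rhesus macaque.

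**Figure D4:**
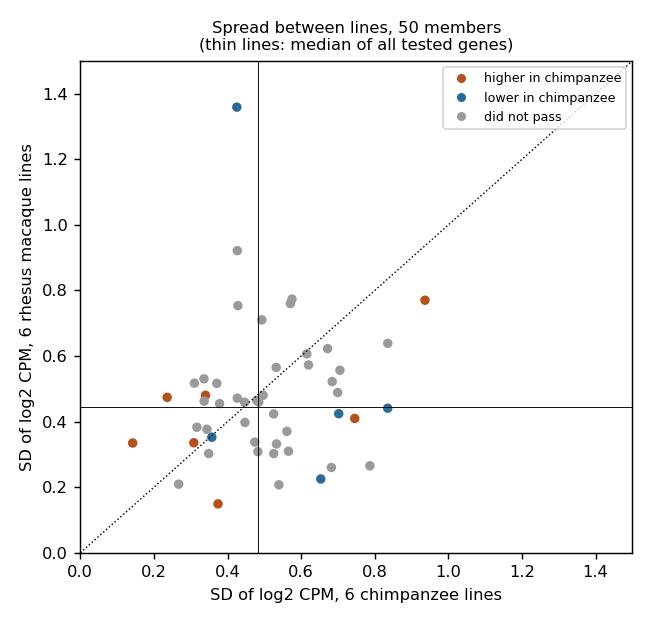
SD of log2 CPM between the 6 chimpanzee lines (x axis) and between the 6 rhesus macaque lines (y axis) for each of the 50 genes, coloured by the species test, with the dotted line of equal spread. The thin lines mark the medians of all tested genes at 0.48 and 0.45, and the point far above the rest is ENSG00000147889.

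Genes of the set moved together in some lines. In chimpanzee replicate 6, 45 of the 50 genes were above the chimpanzee mean, with a median deviation of 0.61 on the log2 scale, while 49.2% of all genes were below the mean. In rhesus macaque replicate 1, 45 of the 50 were below the rhesus macaque mean, with a median deviation of -0.44, while 50.1% of all genes were below. The median over all genes lay between -0.0175 and 0.0224 in every library. Chimpanzee replicates 3 and 4 were low as well, with medians of -0.26 and -0.27 and with 41 and 43 genes below the mean. Of all genes, 48.3% and 47.1% were below it in these lines. The mean is that of the same 6 lines, so a high line such as chimpanzee replicate 6 lowers the deviations of the others. Replicates 3 and 4 were the lowest chimpanzee line for 26% and 22% of the set, against 10.3% and 10.8% of all genes. Rhesus macaque replicates 6 and 3 were on the high side, with medians of 0.22 and 0.17 and with 34 and 38 genes above the mean. They were the highest rhesus macaque line for 38% and 28% of the set, against 21.8% and 21.9% of all genes. The remaining medians lay between -0.02 and 0.09 in chimpanzee and between -0.04 and 0.12 in rhesus macaque. Chimpanzee replicate 6 was the highest chimpanzee line for 25 of the 50 genes (50%), where it was the highest for 16.3% of all genes. Rhesus macaque replicate 1 was the lowest rhesus macaque line for 33 of the 50 (66%), where it was the lowest for 18.7% of all genes.

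A few genes went against these shifts. In chimpanzee replicate 6 the 5 genes below the mean were those on chromosome 7 from 92085322, with a deviation of -1.60, on chromosome 12 from 4253199, with -0.80, on chromosome 6 from 36754465, with -0.55, on chromosome 13 from 47775884, with -0.29, and on chromosome 12 from 54646826, with -0.29. In rhesus macaque replicate 1, 5 genes were above the mean, and 3 of them were among those just named. These 3, on chromosome 7 from 92085322, chromosome 6 from 36754465 and chromosome 12 from 54646826, had deviations of 0.10, 0.10 and 0.06 in that line. Of the other 2, the chromosome 12 gene from 12761576 to 12766569 had a deviation of 0.40 and the chromosome 6 gene from 24885429 to 24894306 one of 0.44.

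Depth moved with these shifts in part. Chimpanzee replicate 6 had the most counts of all libraries, 4751954, and rhesus macaque replicate 1 the fewest of its species, 1801830. Rhesus macaque replicate 6, the deepest of its species with 4600137 counts, had a median deviation of 0.22. Chimpanzee replicate 1, the shallowest library with 1434241 counts, had one of -0.02, and rhesus macaque replicate 3, with 2122502 counts, one of 0.17. The part of depth in these shifts was not tested. A fit without the most shifted library of each species, chimpanzee replicate 6 and rhesus macaque replicate 1, was added later, with values in view. In it 6 genes of the set were higher and 6 lower in chimpanzee, and 44.3% of all genes were called. Of the 12 genes called with all libraries, 10 were also called in that fit. ENSG00000175305 and the chromosome 6 gene from 80772278 were not (edgeR adjusted p = 0.0760 and 0.143).

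**Figure D5:**
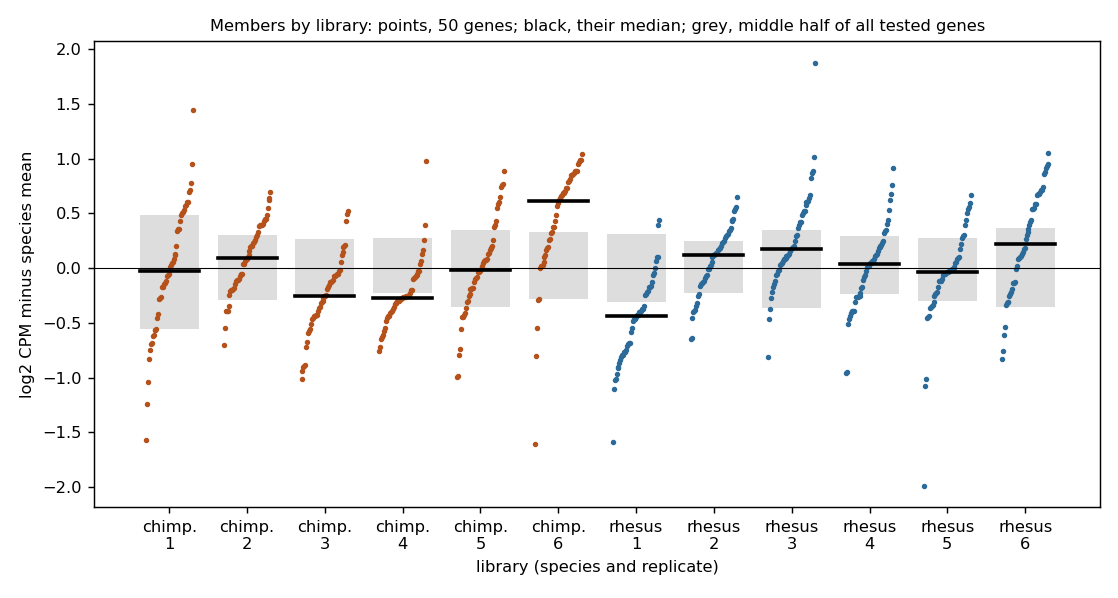
Deviation of each of the 50 genes from its species mean in log2 CPM (y axis) in each library (x axis), with the median of the set as a black line and the quartile range of all tested genes in grey. The set is shifted up in chimpanzee replicate 6, with a median of 0.61, and down in rhesus macaque replicate 1, with a median of -0.44.

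The labels give the sex of each animal, so females were set against males in either species. No gene of the set was called among chimpanzees (3 females and 3 males) or among rhesus macaques (2 females and 4 males), nor did the sex effects differ between them past the threshold, with the edgeR quasi-likelihood test over 9440 genes. The share called over all genes was 0% in each of these tests, and DESeq2's Wald test also called 0 genes of the set. At an unadjusted p under 0.05 there were 2 genes of the set among chimpanzees, 0 among rhesus macaques and 2 in the test of the difference, the same 2 genes. Over all genes the unadjusted counts were 663, 208 and 489, and DESeq2 called 50, 0 and 14 genes. One was ENSG00000112576, with a female minus male log2 difference of 1.02 in chimpanzee (edgeR adjusted p = 0.571). The other was the chromosome 12 gene from 4253199, with -0.78 (edgeR adjusted p = 0.531). All 3 chimpanzee females, replicates 3, 4 and 6, lay below all 3 males in the level of that gene. The females had 1145, 1355 and 820 CPM and the males 2305, 1549 and 1856 CPM. Among rhesus macaques the order was reversed, with the 2 females, at 2113 and 2615 CPM, above all 4 males. These males had 1490, 1545, 1972 and 2038 CPM, and the female minus male value was 0.42 on the log2 scale, not called. The gene was singled out by its unadjusted p. How often the sexes part in this manner over all genes was not tested.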

How the data were processed

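RNA was extracted with a Qiagen RNeasy kit and libraries were read on an Illumina GAII, per the labels' protocols, which mark no strand. The deposited files hold raw counts per exon, whole numbers of at least 1. For the aligner, counting tool, genome build and orthology rules, nothing is stated: not given in the sources used here. An exon missing from a file was taken as 0, and exon counts were summed per gene. The members and lists were chosen with earlier results of these data known.

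Species, exon usage and sex were tested over all genes with edgeR 4.0.16 (limma 3.58.1, R 4.3.3): TMM scaling, the default filter (minimum count 10, total 15, in at least 6 libraries), quasi-likelihood tests, and diffSpliceDGE on exons with at least 10 counts. The sex fit had 4 groups, species by sex. DESeq2 1.42.0 was an alternative. CPM used TMM-scaled library sizes and log2 CPM a prior count of 2. RPKM used the length of counted exons, leaving out exons with no count in any library. Standard errors of log2 differences were taken as the size of the difference over the square root of its quasi-likelihood F statistic. The 95% intervals were built from them with a t quantile, so both are approximate. The fits were tested on simulated counts. Library totals ran from 1434241 to 4751954. Each library is a separate animal. The order within a species is by accession and pairs nothing.

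Genes given in full were the 6 largest differences per direction among called members, the 3 most variable per species at a mean of at least 5 CPM, and members called for exon usage. The seventh higher member, the members that stood out without their strongest exon and those against the shift of a library were chosen after their values were seen. Lists fixed by symbol, cell type markers among them, could not be matched and were not run. Human lines of the series were not analysed here.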

Additional observations from a re-analysis of the deposited data

Results flagged for a closer look

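In 2 of the 38 groups of 6 lines examined, a single line stood apart from the rest, by a gap to its neighbour larger than Dixon's 95% critical value for 6 samples. Gaps and ranges were taken on the log2 scale, so they do not follow from the CPM values printed here. Chance gives about 1 such group in 20. The chromosome 12 gene from 54646826, which was higher in chimpanzee, stood at 180.0 CPM in chimpanzee replicate 1. The gap to the next line was 0.654 of the chimpanzee range in log2 CPM. Chimpanzee replicate 1 was the highest chimpanzee line for 28.5% of all genes tested. The other chimpanzee lines lay between 89.5 and 114 CPM and the rhesus macaque lines between 59.2 and 76.8 CPM. Leaving out the highest line of the higher species cannot make the species overlap. Without that line the log2 difference was 0.48 (edgeR adjusted p = 0.0171).

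The chromosome 7 gene from 92085322 stood at 17.66 CPM in chimpanzee replicate 6, with a gap of 0.636 of the chimpanzee range in log2 CPM. That line was low on both parts of the gene, with 12.4 CPM on the strongest exon and 5.30 CPM on the remaining exons, while 45 of the 50 genes were above the chimpanzee mean in it. Without chimpanzee replicate 6 the gene was called higher in chimpanzee, with a log2 difference of 0.86 (edgeR adjusted p = 0.0316).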

How the results depend on the processing

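With any single library left out, between 10 and 17 genes of the set were called between the species, where 43.7% to 49.6% of all genes were called, and 9 of the 12 called genes, 5 higher and 4 lower in chimpanzee, kept their call in all 12 such fits. DESeq2 called 13 genes of the set and 48.3% of all genes. Males only gave 6 called genes, 1 of them higher in chimpanzee, and 28.8% of all genes, and the test beyond 2-fold gave 2 called, 0 higher and 2 lower, and 17.3% of all genes. Fewer libraries enter the males-only fit and the second asks for a larger difference. The exon usage test called 1 to 5 genes with a library left out, in fits that called 2.62% to 5.12% of all genes, and 12 with the gene-level F test, which called 16.8% of all genes. The median SD between lines ran from 0.41 to 0.53 in chimpanzee and from 0.39 to 0.51 in rhesus macaque with a library left out.

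Signs turned for 3 of the genes followed through the alternatives, none of them called. The chromosome 6 gene from 52238832 was followed by its call alone. The chromosome 12 gene from 4253199 had 0.13 on the log2 scale in males only. The chromosome 2 gene from 111111883 had -0.21 and the chromosome 11 gene from 4072500 had -0.0303 without chimpanzee replicate 6 and rhesus macaque replicate 1, and with a single library left out the chromosome 2 gene ran from -0.0477 to 0.38. The cause was not tested.

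No paired analysis was possible because the labels carry no replicate numbers and each line is a different animal. A standard error of up to 0.54 on the log2 scale limits what could be called, and exons with few counts limit the shares given per exon.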
